A study of Mus musculus with 71 samples.

Results

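The genes described here are 4 members of the Tfap2 (AP-2) transcription factor family, Tfap2a, Tfap2b, Tfap2c and Tfap2e, and 4 transcription factors known from the trophoblast, Cdx2, Elf5, Esx1 and Hand1. They were chosen by symbol, with earlier results of these data known, and all 8 were found among the 24222 genes counted. Levels were measured by sequencing of polyA RNA from mouse embryonic stem (ES) cells of strain C57BL/6, grown on gelatin in 2i, a medium with a pair of kinase inhibitors used to keep them naive. There were 3 libraries in each of 3 groups: cells of genotype EZH2 rescue, in which wild-type EZH2 was put back (rescue); cells of genotype Ezh1/Ezh2 dKO, a double knockout of both genes (dKO); and cells of genotype WT. Whether each line was 1 clone, and how EZH2 was expressed in the rescue, is not given in the sources used here. Ezh1 RNA was low in rescue as well as in dKO, so rescue is not a return to WT for both genes. Peak coordinates for Suz12 came from 1 chromatin immunoprecipitation sample of wild-type ES cells of another strain, 129B6F1.

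Ezh1 and Ezh2 encode the enzymes, used in the alternative, of Polycomb repressive complex 2 (PRC2), a methyltransferase for lysine 27 of histone H3, and Suz12 is a core subunit of that complex. PRC2 is known to cover the promoters of many developmental regulators in ES cells, most of them in CpG-rich DNA. The trophoblast is the outer lineage of the early embryo that builds much of the placenta, and ES cells do not normally make it. Cdx2 is the homeobox factor that establishes the trophectoderm and later patterns the posterior body and gut. Elf5 is an ETS factor that maintains trophoblast stem cells, and it is known in mouse as a gene whose promoter carries DNA methylation in ES cells. Esx1 is an X-linked homeobox gene of the placental labyrinth, and Hand1 is a bHLH factor needed for trophoblast giant cells and for heart and lateral mesoderm. AP-2 proteins bind GC-rich sites as dimers. Tfap2c serves the trophoblast, germ cells and naive pluripotency, Tfap2a and Tfap2b serve neural crest, skin or kidney, and Tfap2e is known from the olfactory system.

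The chromatin context of the genes is shown first, because it differs among them. With a gene and 1 kb on either side of it as the window, and a peak counted when it overlapped by at least 1 base, Suz12 peaks lay over 7 of the 8 genes, against 24.4% of the 24089 genes that could be placed on the genome. The exception was Elf5 (chromosome 2, 103412098 to 103450989), whose nearest peak lay 115184 bases away. Tfap2a (chromosome 13, 40713802 to 40738238) was overlapped by a peak of 14382 bases that covered 42.3% of the window and ran past the higher-numbered end of the gene, and 2 of the 7480 peaks were wider. The peak over Cdx2 (chromosome 5, 147300900 to 147307249) was 8028 bases wide and covered 91.5% of the window, and 35 peaks were wider. Hand1 (chromosome 11, 57828713 to 57832147) had peaks of 5764 and 1356 bases, which covered 84.3% of its window. The median width of all peaks was 1032 bases.

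The other peaks were smaller. Esx1 (chromosome X, 137115397 to 137122131) had a single peak of 526 bases inside the gene, 983 bases from the start site at 137120326 used for its promoter. Tfap2c (chromosome 2, 172545678 to 172558622) had peaks of 561 and 2130 bases. Tfap2e (chromosome 4, 126716003 to 126736269) had peaks of 810 and 2660 bases, and Tfap2b (chromosome 1, 19208908 to 19238845) had peaks of 2411 and 602 bases. The start site used for the Tfap2b promoter, at 19212054, lay 1506 bases from the nearest peak. Without widening the gene, with 5 kb on either side or with an overlap of at least 200 bases, the count of genes with a peak was again 7, and it was 6 with peaks of at least 1 kb. The peak file holds coordinates without a score and comes from 1 sample of another strain, so no test was made.

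**Figure D1:**
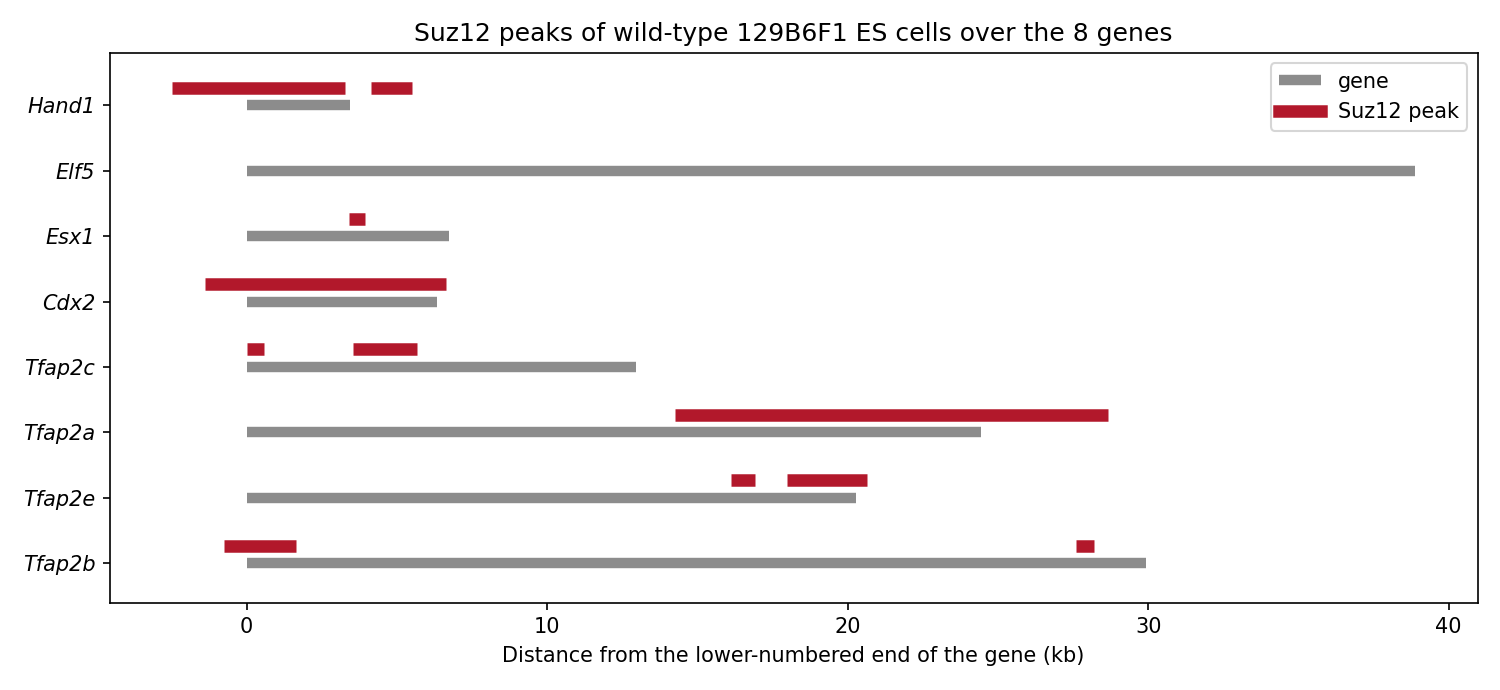
Grey bars show each gene from its lower-numbered to its higher-numbered end, and red bars show Suz12 peaks of wild-type 129B6F1 ES cells, in kb from the lower-numbered end. Elf5 has no peak, Cdx2 and Hand1 lie almost wholly under peaks (91.5% and 84.3% of the window), and Tfap2a has the widest peak of the 8 genes, at 14382 bases over 42.3% of its window.

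Promoter sequences are printed for 4 genes that stand for some of the cases: Cdx2 and Tfap2a, with the start site under a wide peak, Esx1, with a peak downstream of the start site, and Elf5, with no peak. They come from RefSeq on GRCm38.p6, the assembly behind mm10, and run 5′ to 3′ on the gene's strand from 250 bases before to 50 bases after the start site. The start sites used for Esx1 (137120326) and Tfap2a (40733795) lie inside the gene limits given above, and not at the outer 5′ end of the gene. The capitals mark CG, which reads the same on both strands, and in a run such as CGCG each CG counts once. CG occurs in 94.6% of the 32851 windows in the table, with a median of 7 per window.
Cdx2, minus strand, chr5:147307200-147307499: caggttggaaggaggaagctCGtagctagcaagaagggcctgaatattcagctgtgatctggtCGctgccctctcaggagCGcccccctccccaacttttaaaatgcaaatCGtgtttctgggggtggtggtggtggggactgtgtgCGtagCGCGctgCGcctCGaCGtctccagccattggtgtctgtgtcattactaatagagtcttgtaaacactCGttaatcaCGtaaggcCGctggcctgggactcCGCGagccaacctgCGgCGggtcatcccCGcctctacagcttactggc
Tfap2a, minus strand, chr13:40733746-40734045: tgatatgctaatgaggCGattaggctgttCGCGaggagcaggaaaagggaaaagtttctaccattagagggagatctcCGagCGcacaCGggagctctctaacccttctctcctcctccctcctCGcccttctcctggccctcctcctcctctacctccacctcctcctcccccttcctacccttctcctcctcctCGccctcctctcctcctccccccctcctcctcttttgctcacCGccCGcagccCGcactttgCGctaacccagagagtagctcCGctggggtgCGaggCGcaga
Esx1, minus strand, chrX:137120277-137120576: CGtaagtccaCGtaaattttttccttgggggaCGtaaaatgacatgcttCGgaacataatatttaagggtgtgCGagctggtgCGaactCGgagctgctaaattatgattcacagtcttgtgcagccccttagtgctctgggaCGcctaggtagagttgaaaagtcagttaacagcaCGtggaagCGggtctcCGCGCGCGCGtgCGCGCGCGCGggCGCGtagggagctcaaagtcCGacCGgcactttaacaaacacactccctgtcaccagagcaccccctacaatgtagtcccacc
Elf5, plus strand, chr2:103411848-103412147: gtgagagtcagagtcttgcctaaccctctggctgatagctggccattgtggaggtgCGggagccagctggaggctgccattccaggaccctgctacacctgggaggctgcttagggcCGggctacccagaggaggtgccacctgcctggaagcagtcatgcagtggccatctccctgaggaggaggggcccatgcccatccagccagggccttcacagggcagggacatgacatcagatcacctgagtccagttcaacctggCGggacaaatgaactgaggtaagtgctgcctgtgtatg
The Esx1 window held 24 CG, more than 80% of windows, and it had no base in a Suz12 peak. The Cdx2 window held 18 CG and the printed Tfap2a window 15, more than 70.3% and 65.4% of windows, and both lay wholly in a peak. A further Tfap2a start site, at 40734920, had 11 CG in its window, more than 58.6% of windows, and also lay wholly in the peak. The Elf5 window held 3 CG, and 23.3% of windows had fewer. A further Elf5 start site, at 103424068, had 10 CG and lay 142105 bases from a peak. The palindrome GCCNNNGGC, bound by AP-2 proteins, was searched in the same windows and reads the same on both strands. It occurred once, starting 16 bases before the Cdx2 start site, in the windows of the 6 genes found in the table, and it occurs in 16.6% of all windows.

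Total counts ranged between 12457622 and 36009529 per library. After a filter on low counts, 14145 genes were tested, with edgeR's quasi-likelihood test on all 9 libraries and Benjamini-Hochberg adjustment over these genes. A gene is said to have risen or fallen at an adjusted p under 0.05. Levels are CPM, reads scaled to library size with TMM factors, and they are not divided by gene length, so they compare libraries and not genes. Ezh1 averaged 2.88 ± 0.54 CPM in rescue, 1.99 ± 0.301 CPM in dKO and 49.9 ± 3.02 CPM in WT, and Ezh2 averaged 560 ± 14.1 CPM in rescue, 199 ± 13.4 CPM in dKO and 310 ± 2.98 CPM in WT (SD, n = 3 libraries each). In rescue against WT the log2 fold change was -4.11 for Ezh1 and 0.851 for Ezh2 (edgeR adjusted p = 2.07e-09 and 4.51e-07). The part of either difference in the members' values in rescue against WT was not tested. Counts per gene cannot show the loss of single exons. The ES cell markers on the list used here, Pou5f1 and Nanog among them, summed to between 8540 and 8560 CPM in rescue, 6160 and 6330 CPM in dKO, and 7410 and 7610 CPM in WT. dKO replicate 3 stood apart from the other dKO libraries, with a correlation of log levels of 0.9863 and 0.9887 to them against 0.9945 between those, so it is named below where a value rests on it. Nothing in the labels says that replicates are separate cultures, so p-values measure the spread between these libraries, which may be technical.

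Of the 8 genes, 6 passed the filter, and Tfap2b and Tfap2e did not. Hand1 and Elf5 passed through the dKO libraries alone and Cdx2 through dKO and rescue, so these genes had to differ once they were in the test, and the counts of called genes describe the tested members and support nothing further. In dKO against WT 4 of the 6 rose and 0 fell, where 33.7% and 31.0% of all tested genes did (64.7% in either direction), and 4 had no overlap between the groups, as 68.0% of all tested genes did. In rescue against dKO 4 fell and 0 rose, where 38.2% and 32.1% of all tested genes did (70.3% in either direction), and 5 had no overlap, against 71.7%. In rescue against WT 2 rose and 1 fell, where 26.8% and 27.3% did (54.1% in either direction), and 3 had no overlap, against 65.3%. The 3 comparisons share libraries in pairs.

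**Figure D2:**
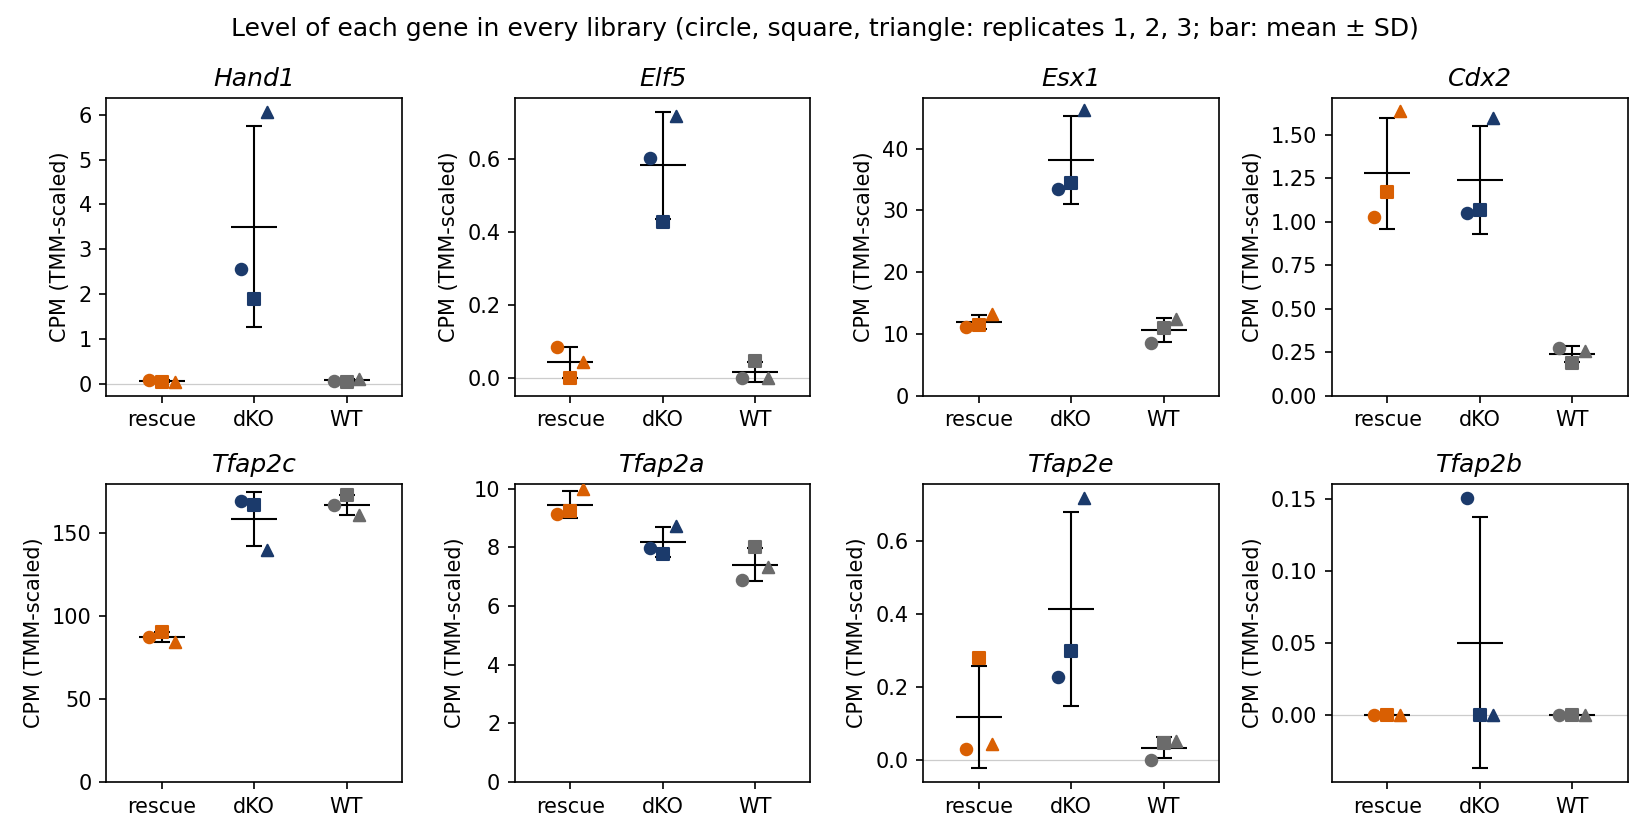
Each panel plots 1 gene, with CPM on its own linear axis and the groups rescue, dKO and WT from left to right. Symbols are the 3 libraries and bars the mean ± SD. Hand1, Elf5 and Esx1 stand high in the dKO libraries alone, Cdx2 stands high in rescue and dKO, and Tfap2c is low in rescue, at 84.3 to 90.1 CPM.

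Hand1 was far higher in dKO than in either other group. It was at 0.0857, 0.0467 and 0.0432 CPM in rescue and 2.56, 1.88 and 6.07 CPM in dKO, against 0.0689, 0.0466 and 0.103 CPM in WT. The dKO libraries lay far above all others, and dKO replicate 3 stood above the other dKO libraries. In counts this was 5 reads over the rescue libraries, 230 over dKO and 4 over WT, a ratio of 51.5 for dKO over WT with an exact 95% interval of 19.9 to 191 for counting error. The edgeR log2 fold change was 5.53 ± 0.666 (SE) in dKO against WT, with Benjamini-Hochberg adjusted p = 1.78e-05, and -5.72 ± 0.62 in rescue against dKO, with adjusted p = 6.29e-06. Without dKO replicate 3 they were 4.78 and -4.97, with adjusted p = 1.23e-07 and 2.45e-08 by edgeR. Rescue and WT overlapped, at -0.19 with a 95% interval of -3.18 to 2.80 and edgeR adjusted p = 0.918, so a difference of several fold between them was not detectable at this depth. In bulk RNA, more cells with the transcript and more transcript per cell cannot be told apart, here and for the genes below. Its paralog Hand2, a heart and limb factor, was not tested and had 0.284 ± 0.0913 CPM in rescue, 0.277 ± 0.0966 CPM in dKO and 0.0499 ± 0.0516 CPM in WT (SD, n = 3). A non-coding gene, Gm32915 (57832108 to 57841678), overlaps the higher-numbered end of Hand1 and is not among the genes counted. The library kit does not mark strand, and the part of Gm32915 in the Hand1 reads was not tested.

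Elf5 was near the limit of detection outside dKO. It had 3, 0 and 1 reads in rescue, 8, 10 and 18 reads in dKO, and 0, 1 and 0 reads in WT. In CPM the dKO libraries were at 0.603, 0.427 and 0.719, with no overlap with the others. The sum of 36 reads in dKO against 1 read in WT gave a ratio of 32.3 with an exact 95% counting interval of 5.43 to 1310. Elf5 rose in dKO against WT (edgeR log2 fold change 4.63 ± 0.792, adjusted p = 0.000271) and fell in rescue against dKO (-3.40 ± 0.593, adjusted p = 0.000264). Against WT, rescue was at 1.23 with a 95% interval of -1.48 to 3.94 and edgeR adjusted p = 0.426. The size of these values rests on single reads: without WT replicate 2, the only WT library with a read, the rise was fitted at 6.68, which is no bound, and without rescue replicate 1 the fall was -4.36. Elf5 is the gene of the 8 without a Suz12 peak.

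Esx1 had many more reads, between 124 and 1159 per library. It was at 11.1, 11.4 and 13.3 CPM in rescue and 33.5, 34.5 and 46.3 CPM in dKO, against 8.54, 10.9 and 12.4 CPM in WT. All dKO libraries lay above all others, while rescue and WT overlapped. Esx1 rose 3.58-fold in dKO against WT (log2 fold change 1.84 ± 0.153, edgeR adjusted p = 7.75e-07) and fell in rescue against dKO (-1.68 ± 0.148, edgeR adjusted p = 1.03e-06). Rescue against WT gave 0.16 with a 95% interval of -0.18 to 0.51 (edgeR adjusted p = 0.410). The 20 tested genes nearest to Esx1 on the X chromosome, 10 on each side, had a median log2 fold change of -0.145 in dKO against WT.

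Cdx2 rose in both dKO and rescue against WT. It was at 1.03, 1.17 and 1.64 CPM in rescue and 1.05, 1.07 and 1.60 CPM in dKO, against 0.275, 0.187 and 0.258 CPM in WT. Rescue and dKO overlapped, and both lay above every WT library. The edgeR log2 fold change was 2.4 ± 0.372 in dKO against WT (adjusted p = 0.000126) and 2.4 ± 0.364 in rescue against WT (adjusted p = 0.000188), on 99, 79 and 13 reads over the rescue, dKO and WT libraries. That is 5.27-fold in dKO and 5.26-fold in rescue. Rescue against dKO was -0.0029 with a 95% interval of -0.55 to 0.54 (edgeR adjusted p = 0.993), and its sign changed between settings. Hand1, Elf5 and Esx1 fell in that comparison, and the difference between Cdx2 and these genes was not tested. Of its paralogs, Cdx1, a posterior patterning factor named here after its values were seen, was at 56.3 ± 5.95 CPM in rescue, 35.9 ± 8.93 CPM in dKO and 23.9 ± 2.71 CPM in WT (SD, n = 3), and rose in dKO against WT (0.59, edgeR adjusted p = 0.00615), in rescue against dKO (0.64, adjusted p = 0.00233) and in rescue against WT (1.23, adjusted p = 5.61e-05). Cdx4 had at most 0.226 ± 0.0131 CPM, in dKO, and was not tested.

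Tfap2c fell in rescue against both other groups. It was at 87.1, 90.1 and 84.3 CPM in rescue and 169, 167 and 140 CPM in dKO, against 167, 173 and 161 CPM in WT. Every rescue library lay below every other library, while dKO and WT overlapped. Its level in rescue was 0.549 of that in dKO (log2 fold change -0.86 ± 0.0747, edgeR adjusted p = 8.38e-07) and 0.522 of that in WT (-0.94 ± 0.0748, edgeR adjusted p = 1.54e-06). In dKO against WT the value was -0.07 with a 95% interval of -0.24 to 0.09 (edgeR adjusted p = 0.394), and without dKO replicate 3, the lowest dKO library, it was 0.0074. The 20 nearest tested genes had a median log2 fold change of 0.17 in rescue against WT, and -0.0883 in rescue against dKO.

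Tfap2a differed by at most 1.27-fold between groups. It was at 9.12, 9.25 and 9.99 CPM in rescue and 7.99, 7.76 and 8.74 CPM in dKO, against 6.89, 8.02 and 7.32 CPM in WT. Rescue lay above both other groups without overlap, and dKO and WT overlapped. The rise in rescue against WT was 1.27-fold (log2 fold change 0.34 ± 0.107, edgeR adjusted p = 0.0171), and the call was lost without rescue replicate 3 (0.0663) or WT replicate 1 (0.0682). Rescue against dKO gave 0.21 ± 0.106 (edgeR adjusted p = 0.0986), which passed without dKO replicate 3 (0.27, adjusted p = 0.0388). In dKO against WT it was 0.14 with a 95% interval of -0.10 to 0.38 (edgeR adjusted p = 0.292), for the gene of the 8 with the widest Suz12 peak. A non-coding gene that overlaps Tfap2a, Gm26688, had 4 reads over the rescue libraries, 4 over dKO and 2 over WT, and the library kit does not mark strand.

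Tfap2e and Tfap2b were barely detected. Tfap2e had 1, 6 and 1 reads in rescue, 3, 7 and 18 reads in dKO, and 0, 1 and 1 reads in WT. The dKO libraries lay above WT, while 1 rescue library lay within the dKO range. The summed reads gave a ratio of 12.6 for dKO over WT with an exact 95% counting interval of 3.16 to 109, and 0.222 for rescue over dKO with an interval of 0.0874 to 0.500. In the edgeR fit without a filter on low counts, Tfap2e was called higher in dKO against WT (3.41, adjusted p = 0.00502) and lower in rescue against dKO (-2.04, adjusted p = 0.0178). Tfap2b had 2 reads in dKO replicate 1 and 0 in every other library, at or under the limit of 3 reads that a count of 0 allows over a group (0.0377 CPM in rescue, 0.0486 CPM in dKO and 0.0542 CPM in WT), so no fold is given. Tfap2d, the remaining family member and not among the 8, had 0 reads in all 9 libraries.

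**Figure D3:**
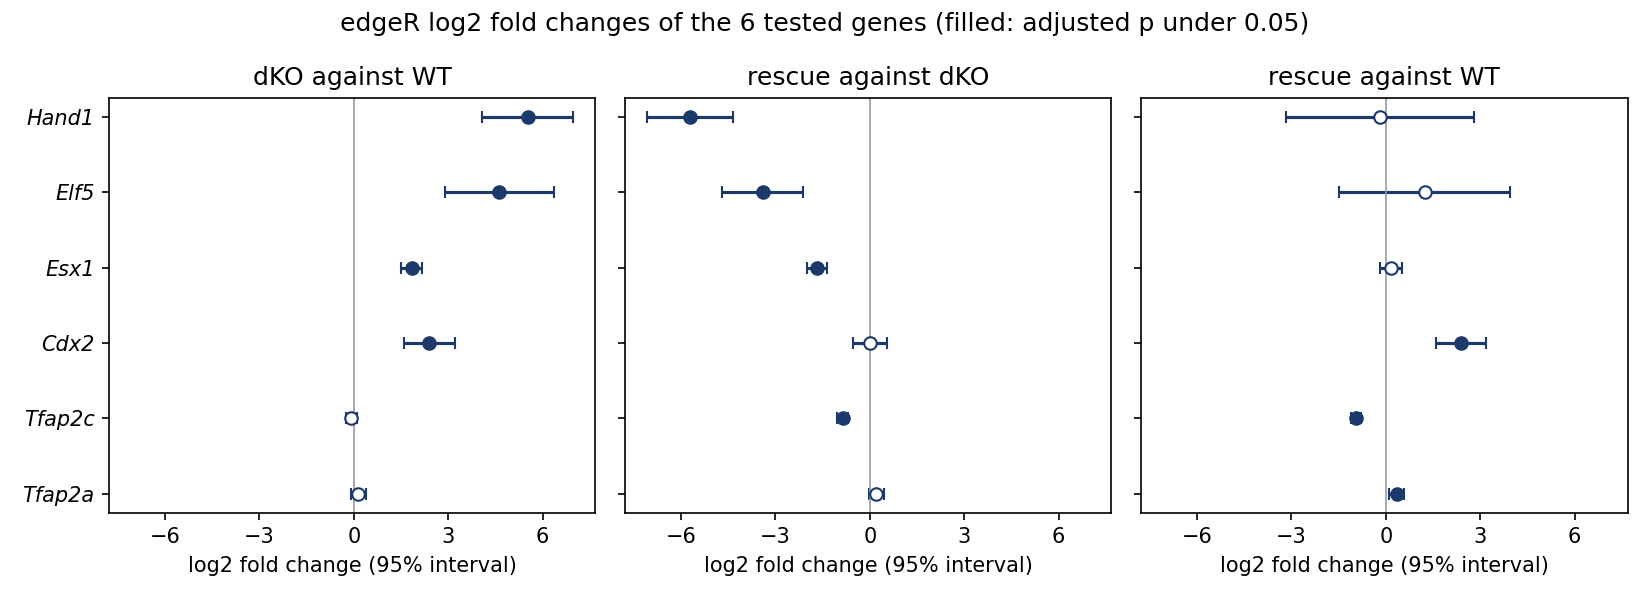
Points are edgeR log2 fold changes of the 6 tested genes in each comparison, with bars for the 95% interval and filled points for adjusted p under 0.05. Hand1, Elf5 and Esx1 are filled on opposite sides in dKO against WT and rescue against dKO, Cdx2 sits at 2.4 in both comparisons with WT, and Tfap2c is filled below 0 in both comparisons of rescue.

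Across the dKO libraries the 8 genes did not vary in one way. dKO replicate 3 held the highest dKO level of Hand1, Elf5, Esx1, Cdx2, Tfap2a and Tfap2e and the lowest of Tfap2c. The same library had 273 CPM summed over 17 placental effector genes, against 170 and 172 CPM in dKO replicates 1 and 2, and 428 CPM summed over 16 other trophoblast regulators, against 371 and 376 CPM. The placental sums were 171 to 181 CPM in WT and 121 to 130 CPM in rescue, so dKO replicate 3 alone lay above WT. For the regulators the sums were 230 to 241 CPM in WT and 247 to 258 CPM in rescue, below every dKO library. The part of that library's composition in the members' levels was not tested. With dKO replicate 3 left out, all of Hand1, Elf5, Esx1 and Cdx2 were again called higher in dKO against WT. For Hand1, Elf5 and Cdx2 this says little, since they enter the test through the groups in which they are high. Medians of the 20 nearest tested genes around each of the 8 lay between -0.145 and 0.314 on the log2 scale in dKO against WT.

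By Pearson correlation of log2 CPM over the 9 libraries, each tested member was set beside genes of at least 1 CPM on average. This is a description, since the points share groups and libraries. Among the closest to Hand1 were Cnnm4 (r = 0.9962) and Arl4d (0.9947), and the closest to Esx1 were Mapkapk2 (0.995), Zdhhc2 (0.9939) and Fam115a (0.9938). Elf5 was closest to Arpc1a (0.9876), Flrt1 (0.9867) and Dsc2 (0.986), Cdx2 to Chrna4 (0.9899), Tmem231 (0.988) and Commd9 (0.9854). Arpc1a had means of 111 CPM in rescue, 130 CPM in dKO and 106 CPM in WT, a far smaller change than that of Elf5. The correlation thus compares the shape of the levels and not the size of the change. Chrna4, a nicotinic receptor subunit, had means of 17.7 CPM in rescue, 18.4 CPM in dKO and 3.57 CPM in WT, the shape that Cdx2 showed. Tfap2c was closest to Camk1 (0.9979), Ahcyl1 (0.9977) and Abhd4 (0.9971), and Tfap2a to Padi4 (0.9601), Tmlhe (0.9567) and Nos1 (0.9554).

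Other trophoblast genes were read from lists beside the 8. Counts of called genes in these and the later lists stand against the shares of all tested genes. Those were 33.7% higher and 31.0% lower in dKO against WT, and 32.1% and 38.2% in rescue against dKO. For rescue against WT they were 26.8% and 27.3%. No list was tested against these shares. The lists, like the 8 genes, were chosen with earlier results of these data known. Listed genes with few reads outside 1 group also enter the test through the group in which they are high. The counts and medians therefore describe the tested genes and support nothing further. Of 16 further regulators 15 were tested, and in dKO against WT 7 rose and 3 fell, with a median log2 fold change of 0.64 against -0.0026 over all tested genes. Rhox6 and Rhox9, X-linked homeobox genes of the placenta with similar sequences whose reads may be shared, averaged 65.8 ± 4.42 and 53.2 ± 1.93 CPM in dKO, against 3.38 ± 0.608 and 3.13 ± 0.51 CPM in WT (SD, n = 3). Id2, an inhibitor of bHLH factors, rose by 2.62 ± 0.183 in dKO against WT, and Fgfr2, the receptor for the FGF signal that maintains trophoblast stem cells, was at 0.64 without passing (edgeR adjusted p = 1.8e-07 and 0.146). Fgfr2 was at 5.2, 4.91 and 14.9 CPM in dKO replicates 1, 2 and 3, against 5.23, 5.08 and 6.14 CPM in WT, so dKO replicate 3 alone lay above the WT range. In rescue against dKO 3 of the 15 rose and 10 fell (median -1.47), and in rescue against WT 3 rose and 3 fell (median 0.10), where the medians over all tested genes were -0.04 and 0.0016. Eomes, the T-box partner of Cdx2 and Elf5 in trophoblast stem cells, named after its values were seen, was at 46.0 ± 2.61 CPM in rescue, 12.7 ± 1.08 CPM in dKO and 14.9 ± 0.729 CPM in WT (SD, n = 3). It fell in dKO against WT by 0.24 and rose in rescue against WT by 1.63 (edgeR adjusted p = 0.0387 and 9.06e-08).

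Of 17 placental effector genes 8 were tested. In dKO against WT 5 rose and 1 fell (median 2.11), in rescue against dKO 1 rose and 6 fell (median -1.46), and in rescue against WT 6 rose and 2 fell (median 0.80). The simple-epithelium keratins Krt18 and Krt8 rose in dKO against WT by 3.17 and 2.70, and the cadherin Cdh3 by 1.53 (edgeR adjusted p = 5.54e-08, 6.15e-07 and 6.01e-08), while Plet1, a trophoblast surface protein, was at -0.35 without passing (0.110). The gene that fell was Peg10, named after its values were seen (-1.9, edgeR adjusted p = 0.00104). It averaged 49 CPM in rescue, 29 CPM in dKO and 110 CPM in WT. Its levels in dKO replicates 1, 2 and 3 were 17.2, 20.8 and 49.1 CPM. Summed over all 17 genes, Peg10 among them, levels were 121 to 130 CPM in rescue, 170 to 273 CPM in dKO and 171 to 181 CPM in WT. dKO replicate 3 was again the highest dKO library for Krt18 (45.1 CPM, against 27.7 and 28.8 CPM in replicates 1 and 2), Krt8 (40.9, against 23.1 and 24.1 CPM) and Plet1 (13.2, against 7.76 and 7.64 CPM). Of the 9 placental effector genes that were not tested, 6 had no read: Prl3d1, Prl3b1 and Prl2c2 (prolactin-family hormones of giant cells), Tpbpa (spongiotrophoblast), Synb (syncytiotrophoblast) and Ctsq (a placental cathepsin) had 0 reads in all 9 libraries. The other 3 had few reads: Syna, a second syncytiotrophoblast gene, had 19 over the rescue libraries, 18 over dKO and 19 over WT, Plac1 had 10 over rescue, 12 over dKO and 4 over WT, and Psg17 had 3 over rescue, 7 over dKO and 1 over WT.

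**Figure D4:**
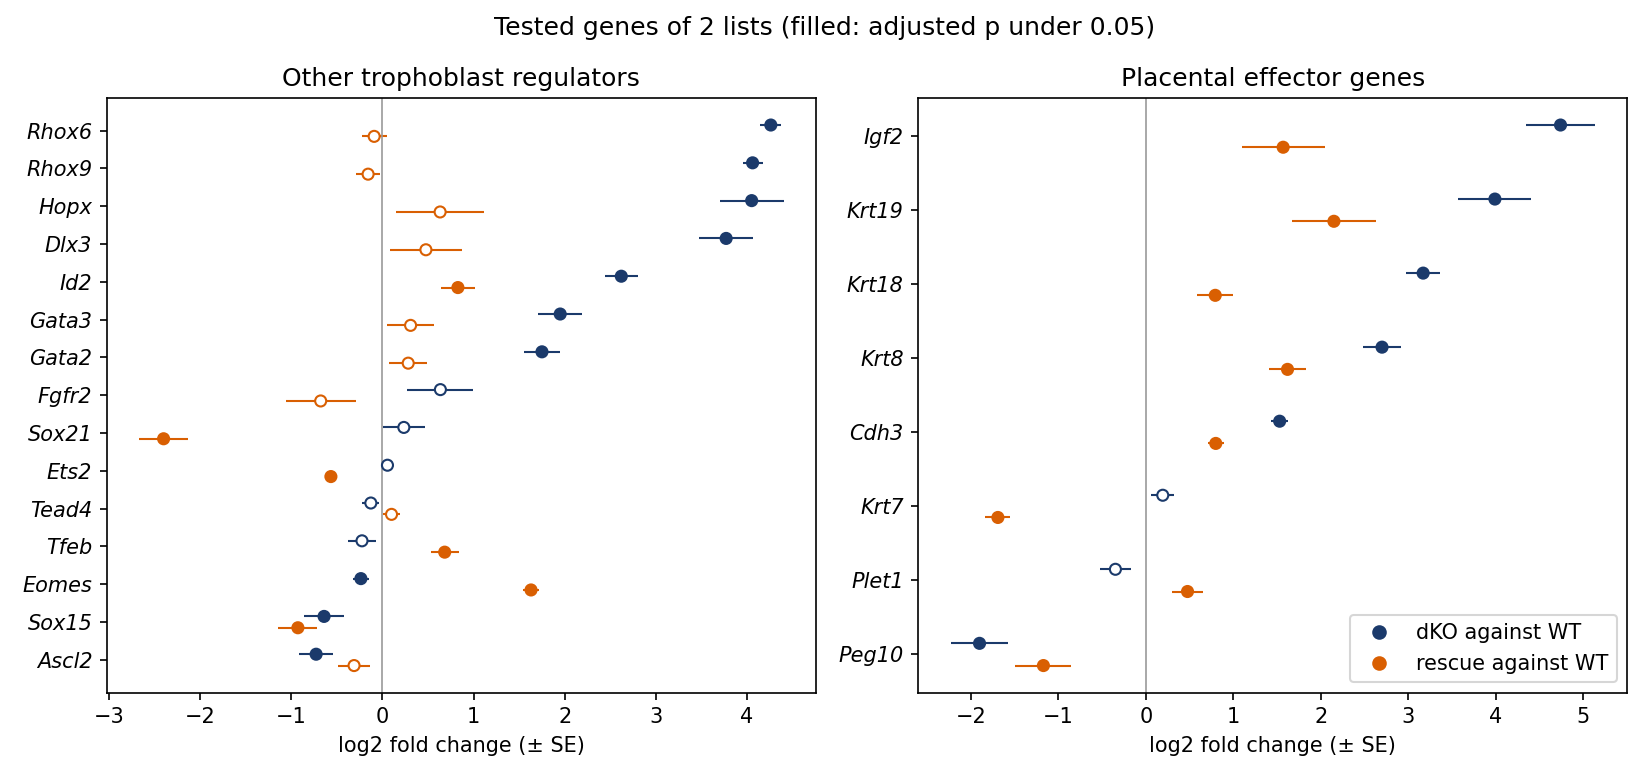
Points are edgeR log2 fold changes ± SE of the tested genes of the lists of trophoblast regulators and placental effectors, blue for dKO against WT and orange for rescue against WT, filled at adjusted p under 0.05. Rhox6 is at 4.26 in dKO and -0.09 in rescue, and Eomes is at -0.24 in dKO and 1.63 in rescue. Both comparisons share the WT libraries.

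Hand1, Cdx2 and the AP-2 genes also belong to other lineages, whose markers moved in the same libraries. Of 12 lateral mesoderm and heart genes 10 were tested and all 10 rose in dKO against WT (median 3.17), among them the hindlimb factor Pitx1 by 4.26, Isl1 by 2.88 and Tbx5 by 6.09, and 9 fell in rescue against dKO. Their summed level was 13.3 to 13.8 CPM in rescue, 99.7 to 110 CPM in dKO and 11.5 to 11.8 CPM in WT. Some had few reads outside dKO and so had to differ once they were in the test. Tbx5 had 27 reads over the rescue libraries, 484 over dKO and 6 over WT. Foxf1, named after its values were seen, had 5, 121 and 3 reads. Of 16 neural crest and surface ectoderm genes 10 were tested and 9 rose in dKO against WT (median 1.47), with the ETS factor Ets1 up by 3.10, Grhl3 by 1.08 and Sox10 by 5.30, and with the neurotrophin receptor Ngfr at 0.10 without passing. In rescue against dKO 2 rose and 6 fell (median -1.06). Summed, these were at 104 to 116 CPM in rescue, 112 to 122 CPM in dKO and 62.5 to 66.6 CPM in WT, and the epidermal keratins Krt5 and Krt14 were at most 0.0631 CPM in any group mean. Ngfr, at 43.6 CPM in rescue and 27.2 CPM in dKO, and Foxd3, a neural crest factor named after its values were seen, at 34 CPM in rescue and 18.7 CPM in dKO, were the genes that rose in rescue against dKO. In rescue against WT 3 mesoderm genes rose and 1 fell, and 6 neural crest and ectoderm genes rose and 1 fell. The part of these cell types in the levels of Hand1 and Cdx2 was not tested.

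The germ cell genes that share Tfap2c's lineage moved in both directions. Of 8 tested 4 rose and 4 fell in dKO against WT (median 0.16). Prdm1, a transcriptional repressor needed for primordial germ cells, fell by 1.31 there, while the helicase Ddx4 rose by 1.08 and Prdm14 by 0.66. Rescue against dKO had 2 higher and 6 lower (median -0.79), and rescue against WT had 1 higher and 5 lower (median -0.38). Of 14 paralogs and AP-2 cofactors 10 were tested. In dKO against WT 5 rose and 3 fell (median 0.12), in rescue against dKO 3 rose and 5 fell (median -0.28), and in rescue against WT 2 rose and 4 fell (median -0.16). Cited2, a coactivator of AP-2 proteins, was at 46.6 ± 4.70 CPM in rescue, 12.7 ± 2.52 CPM in dKO and 33.0 ± 4.12 CPM in WT (SD, n = 3), and its relative Cited1 rose in dKO against WT by 1.06, while Elf3, an epithelial ETS factor, fell by 0.58 and the bHLH partner Tcf12 was at -0.11 without passing.

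Of 10 ES cell markers 7 fell and 1 rose in dKO against WT (median -0.33), with Sall4 falling by 0.59, Dppa5a by 0.67 and Zfp42 by 0.55, and with Tfcp2l1 at 0.05 without passing. In rescue against WT 7 rose and 1 fell (median 0.24), beside the fall of Tfap2c. Of 8 fibroblast markers 6 were tested and 5 rose in dKO against WT (Thy1 by 4.08 and Fbn1 by 3.8), whereas the filament protein Vim fell by 4.03. Summed, the 8 were at 143 to 148 CPM in rescue, 66.9 to 81.7 CPM in dKO and 337 to 357 CPM in WT. Vim alone averaged 134 CPM in rescue, 20.7 CPM in dKO and 343 CPM in WT, so the order of the sums is that of Vim. The part of these markers in the members' levels was not tested. Col3a1 and Postn were at most 0.0768 CPM in any group mean.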

How the data were processed

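For 9 RNA libraries the authors deposited whole-number counts for each gene, without normalization. Per the submitters' processing notes the tools were Trimmomatic, STAR 2.4.0 and HTSeq, with build mm10. The annotation and counting mode were not stated. Per the labels' protocols the kit was TruSeq RNA Library Prep Kit v2. For Suz12 the authors deposited other data, a list of peak positions with no score, made with a caller not given in the sources used here. Of 71 samples, 61 were not analysed here, 2 of them with labels that name different antibodies.

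From the counts, edgeR 4.0.16 in R 4.3.3 computed TMM factors, filterByExpr by group, and 1 robust quasi-likelihood fit over the 9 libraries, with 1 mean for each group, 6 residual degrees of freedom and two-sided tests at an adjusted p of 0.05. The script was checked on simulated data. SE and 95% intervals follow from the test's F value; counting intervals and the limit of 3 counts cover counting error only. The alternatives were DESeq2 1.42.0, its size factors in edgeR, 2 other filters, fits of 2 groups, a replicate block and leaving out each library.

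Genes were placed with a RefSeq table of GRCm38.p6, with 22859 matched on their symbol, 1230 on a synonym and 133 left unplaced. Promoters of 6 of the 8 genes were matched, and coordinates are 1-based. From each list up to 3 genes with the smallest adjusted p in dKO against WT and up to 1 that did not pass are named, and for each tested member the 3 genes of highest correlation, of which 1 is not reported here. The members and lists were chosen with earlier results of these data known.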

Additional observations from a re-analysis of the deposited data

How the results depend on the processing

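The calls of Hand1, Elf5, Esx1 and Cdx2 in dKO against WT, of Hand1, Elf5, Esx1 and Tfap2c in rescue against dKO, and of Cdx2 and Tfap2c in rescue against WT kept their direction and an adjusted p under 0.05 in every alternative in which the gene was tested. For Hand1, Elf5 and Cdx2 this says little of stability, since they enter the test through the groups in which they are high. With a mean of at least 2 CPM, 3 members stayed in the test, and the counts were 1 higher in dKO against WT, 2 lower in rescue against dKO and 1 higher in rescue against WT. With only dKO and WT in the fit, Elf5 did not pass the filter, and 3 of the 5 members tested were higher in dKO. With 1 library left out, members higher numbered 0 to 1 in rescue against dKO and 1 to 2 in rescue against WT, both through Tfap2a. Values near 0 changed sign. Cdx2 in rescue against dKO was 0.0198 with DESeq2 size factors, 0.0179 with no filter, 0.0384 with the replicate block, 0.0349 with only both groups in the fit, 0.0408 by DESeq2, and -0.207 to 0.242 with 1 library left out. Leaving out 1 library gave -0.123 to 0.0074 for Tfap2c in dKO against WT and -0.619 to 0.158 for Hand1 in rescue against WT. The cause was not tested. The deviations of same-numbered libraries from their group means correlated at -0.112 to 0.201. Libraries were nearest to their own number in 7 of 18 cases. For replicate 3 the correlations were 0.0366 (dKO and WT), 0.0553 (rescue and dKO) and 0.201 (rescue and WT). No pairing was assumed in the main fit, and a batch shared by the replicate 3 libraries was not tested. With the replicate block 4 members were again higher in dKO against WT. Depth limits the values of Hand1 and Elf5 outside dKO, and those of Tfap2e and Tfap2b.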
